A study of Mus musculus with 6 samples.

Results

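The 30 genes followed here make cholesterol, sense it or move it. They were chosen by name, with earlier results of these data known. They are enzymes that lead from acetyl-CoA to cholesterol, sterol-sensing regulators of the SREBP transcription factors, and carriers that store, ship or export cholesterol. Shares of these genes set beside those of all genes are therefore descriptions, not independent tests. Of them, 28 were measured by a probe set whose annotation names 1 gene, out of 19937 such genes on the array, and Acat2 and Soat1 had no such probe set. Where a gene had several probe sets, the one with the highest mean over the 6 arrays was used. Not every enzyme of the pathway is among the 30.

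The arrays held RNA from 3 tumours of SCID mice with estradiol (E2) pellets and 3 tumours of SCID mice with placebo pellets. All 6 tumours were grown from MASE2 cells, ascites cells of the tgCAG-LS-TAg ovarian cancer model, in which adenovirus carrying Cre, injected under the ovarian bursa, switches on the SV40 large and small T antigens in ovarian surface epithelium. Per the labels the donor had itself received E2, so the placebo tumours also descend from E2-exposed cells, and MASE2 is 1 cell line. Pellets were placed at the time of cell injection and tumours were taken at loss of wellness, with no day or animal age given. SCID hosts lack mature T and B lymphocytes but keep macrophages, endothelium and stroma, and each tumour sample was profiled whole. Values are log2 intensities summarised with RMA, on which a difference of 1 is a doubling, and levels of different genes cannot be compared, because each probe set responds differently.

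Cholesterol is built from acetyl-CoA through mevalonate, isoprenoid diphosphates, squalene and lanosterol. When membranes of the endoplasmic reticulum hold little sterol, the escort protein SCAP carries SREBP precursors to the Golgi, where they are cut to release a transcription factor that turns on most of the synthesis genes. When sterol is plentiful, INSIG proteins hold SCAP back, and oxidised sterols activate the LXR receptors, which turn on export genes such as Abca1 and Abcg1. Gonadal cells also use cholesterol as the starting material of steroid hormones.

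One array stood apart and bears on every value. Placebo replicate 3 had a Pearson r of 0.857 to 0.865 with the other arrays across all genes, against 0.960 to 0.994 among those arrays. All 15 enterocyte markers were higher in it than in every other tumour. The mean log2 level of that list was 4.41 to 4.46 in the E2 tumours, 4.43 and 4.54 in placebo replicates 1 and 2, and 10.29 in placebo replicate 3. Each E2 array had 6 or 7 of these markers below the lower quartile of all genes (4.22 to 4.39), as did placebo replicates 1 and 2, and placebo replicate 3 had 0. The ovarian surface epithelium and mesothelium markers, 13 of 13 measured, lay above that quartile on every array, with list means of 6.35 to 6.62 in the E2 tumours and 7.38 to 8.09 in the placebo tumours. Differences were therefore computed for all 6 tumours and without placebo replicate 3, and both are plotted for the 28 genes. For some genes the text gives only the difference without placebo replicate 3. As a check of the labels, Greb1, an early oestrogen receptor target, was 3.41 log2 units higher with E2 on 6 arrays and 3.33 without that array, and Pgr, the progesterone receptor gene, 2.64 and 2.58.

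On all 6 tumours 25 of the 28 genes had a higher mean with E2 (48.3% of all genes), yet 0 passed limma at an adjusted p under 0.05 over all genes. Over all genes 1.06% were called higher and 0.326% lower at that threshold. At an unadjusted limma p under 0.05, 10 of the 28 were higher and 2 lower, against 10.4% and 6.16% of all genes. The E2 tumours lay wholly above the placebo tumours in 9 of the 28 genes (32.1%, against 14.9% of all genes) and wholly below them in Abca1 and Abcg1 (11.4% of all genes). The median difference of the 28 genes was 0.41 log2, and that of all genes was -0.01.

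Without placebo replicate 3, 19 of the 28 genes rose with E2, 2 fell and 7 did not pass. The share that rose was 67.9%, against 6.4% of all genes, and 5.21% of all genes fell. Every E2 tumour lay above placebo replicates 1 and 2 in 24 of the 28 (21.2% of all genes), and below them in 2 (20.4% of all genes). The genes that rose were 14 of the 18 measured enzymes, 4 of the 5 regulators and Stard4, and the 2 that fell were the export genes Abca1 and Abcg1. The median difference was 0.49 log2 over the 28 genes and 0.73 over the 18 enzymes. When each of the other 5 arrays was left out in turn as well, 12 of the 19 rises and both falls were called in all 5 fits. The 7 rises that were lost in at least 1 of these fits were Pmvk, Nsdhl, Hsd17b7, Ebp, Srebf1, Srebf2 and Stard4. In bulk tumour RNA, fewer cells of a type and less RNA per cell cannot be told apart, which holds for every difference below.

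**Figure D1:**
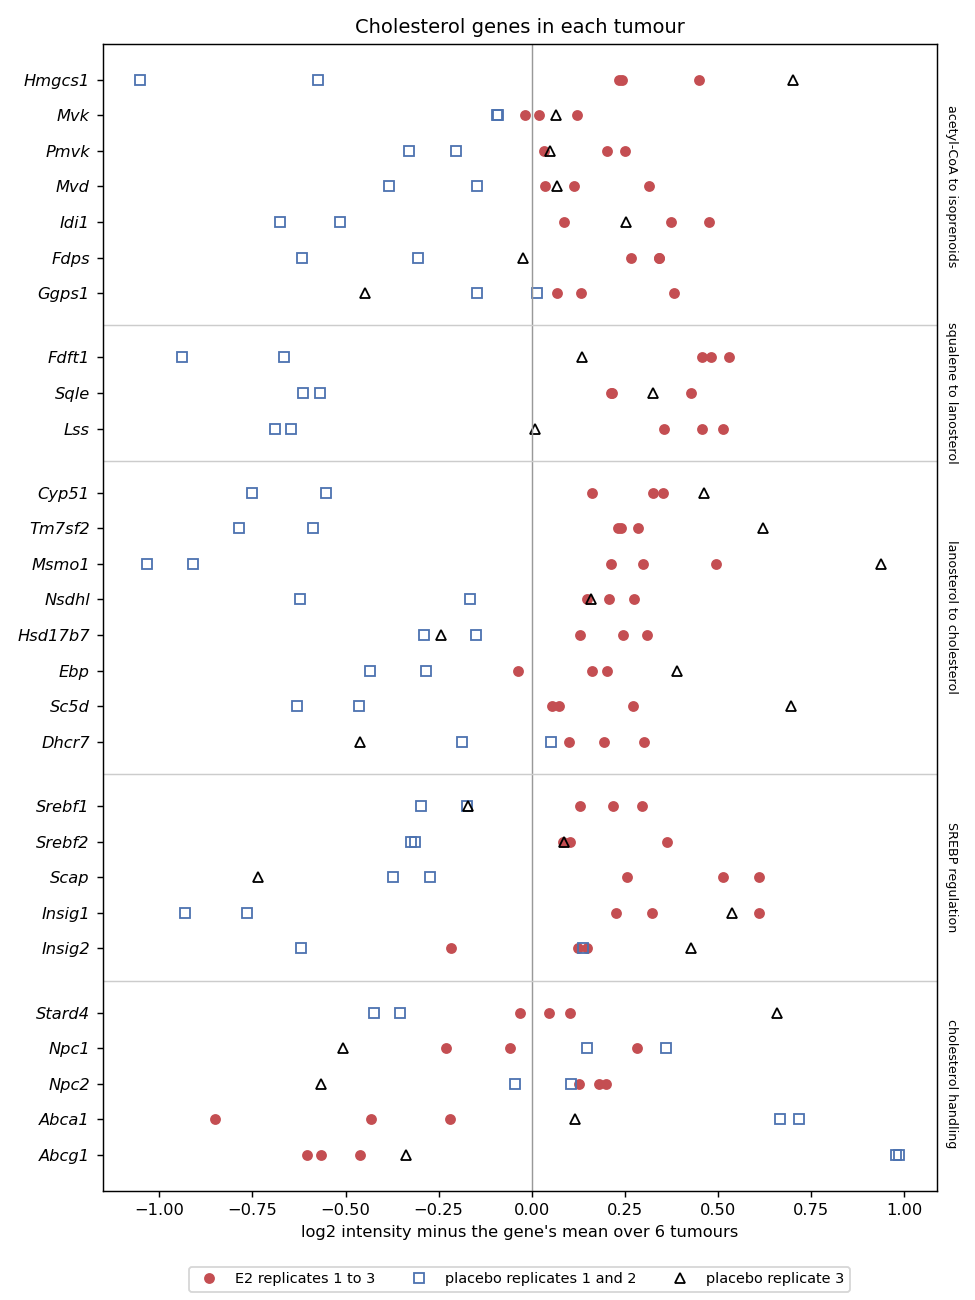
Log2 intensity of each of the 28 genes in each tumour, relative to that gene's mean over the 6 tumours (horizontal axis), grouped by pathway step down the page. Red circles are E2 tumours, open squares placebo replicates 1 and 2, and open triangles placebo replicate 3. The 18 enzymes show the E2 tumours to the right of placebo replicates 1 and 2, with placebo replicate 3 above the E2 tumours in 6 of them, and Abca1 and Abcg1 show the E2 tumours on the left.

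The early enzymes, from acetyl-CoA to isoprenoids, include 8 listed genes, of which 7 were measured and 4 rose without placebo replicate 3. Hmgcs1 encodes the synthase that makes HMG-CoA, the precursor of mevalonate. It measured 8.09, 8.08 and 8.30 in the E2 tumours, against 7.28, 6.80 and 8.55 in placebo replicates 1, 2 and 3. The E2 tumours lay close together, well above placebo replicates 1 and 2 and below placebo replicate 3. Its difference was 0.62 log2 on 6 arrays (SE 0.43, limma adjusted p = 0.523) and 1.12 without placebo replicate 3 (SE 0.15, limma adjusted p = 0.00343), a 2.17-fold rise.

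The Hmgcs1 promoter is shown because it was the only measured gene of the set whose upstream sequence held the sterol response element searched for, TCACNCCAC. The 250 bases before the RefSeq start of Hmgcs1 (GRCm38.p6, chr13:119690101-119690350, plus strand) are printed 5′ to 3′, with that element and each CCAAT box (on either strand, so also ATTGG) in capitals.
Hmgcs1: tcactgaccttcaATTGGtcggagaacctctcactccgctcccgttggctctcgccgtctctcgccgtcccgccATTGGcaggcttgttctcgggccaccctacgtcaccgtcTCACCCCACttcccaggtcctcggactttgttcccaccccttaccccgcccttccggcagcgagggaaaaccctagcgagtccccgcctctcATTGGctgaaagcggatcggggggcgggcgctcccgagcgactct

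The sterol response element lay 137 bases upstream of the start, and the CCAAT boxes 45, 176 and 237 bases upstream. CCAAT boxes are bound by NF-Y, a factor that SREBPs are known to work with at sterol-regulated promoters.

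Idi1, the isomerase that balances the isoprenoid building blocks, measured 7.86, 8.15 and 8.25 in the E2 tumours, against 7.26, 7.10 and 8.03 in the placebo tumours. Placebo replicate 3 fell inside the E2 range and the other placebo tumours below it. Idi1 rose by 0.91 on the log2 scale without placebo replicate 3 (0.62 on 6 arrays, limma adjusted p = 0.311), and its other probe set differed by 0.82 in the same fit. Its probes may share sequence with the paralog Idi2. Fdps, farnesyl diphosphate synthase, measured 7.79, 7.72 and 7.79 in the E2 tumours and 7.14, 6.83 and 7.43 in the placebo tumours. These groups did not overlap, and Fdps differed by 0.63 on 6 arrays (adjusted p = 0.133 in limma) and 0.78 without placebo replicate 3. Pmvk, which adds the second phosphate to mevalonate, rose by 0.43 without placebo replicate 3.

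The other early genes did not pass without placebo replicate 3, though Mvd differed there about as much as Pmvk. On 6 arrays Ggps1 differed by 0.39, Pmvk by 0.32 and Mvd by 0.31, and none passed. Mvd, the decarboxylase that yields isopentenyl diphosphate, differed by 0.42 without placebo replicate 3 and missed the threshold (limma adjusted p = 0.0670), and Mvk, mevalonate kinase, differed by 0.13 (95% confidence interval -0.079 to 0.35). Ggps1 makes geranylgeranyl diphosphate, the branch that feeds protein prenylation rather than sterols. It measured 6.76, 6.82 and 7.07 in the E2 tumours and 6.70, 6.54 and 6.24 in the placebo tumours, so the groups were apart, but its difference of 0.26 without placebo replicate 3 had an interval of -0.018 to 0.54. In Ggps1 placebo replicate 3 was the lowest of the 6 tumours, in contrast to the other early enzymes, where it lay above placebo replicates 1 and 2.

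The enzymes from squalene to lanosterol all rose without placebo replicate 3, with a median of 1.11 log2. Fdft1, squalene synthase, is the first enzyme that commits isoprenoids to sterols. It measured 8.39, 8.34 and 8.31 in the E2 tumours, against 7.19, 6.92 and 7.99 in the placebo tumours. All E2 tumours were above all placebo tumours, and the difference was 0.98 log2 on 6 arrays (SE 0.27, limma adjusted p = 0.164) and 1.29 without placebo replicate 3 (SE 0.11, limma adjusted p = 0.000451). The other Fdft1 probe set gave 1.00 and 1.36.

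Sqle, squalene epoxidase, a controlled step of sterol synthesis, measured 7.66, 7.65 and 7.87 in the E2 tumours, against 6.87, 6.83 and 7.77 in the placebo tumours. Placebo replicate 3 was again inside the E2 range. Sqle rose by 0.88 without placebo replicate 3 and differed by 0.57 on 6 arrays (limma adjusted p = 0.352). Lss, lanosterol synthase, closes the chain of squalene epoxide into the sterol rings. It measured 6.89, 7.0 and 7.05 in the E2 tumours, against 5.85, 5.89 and 6.55 in the placebo tumours. Placebo replicate 3 lay between the other placebo tumours and the E2 tumours, which did not overlap with any placebo tumour. The difference was 0.88 log2 on 6 arrays (95% confidence interval 0.39 to 1.37, limma adjusted p = 0.109) and 1.11 without placebo replicate 3 (0.89 to 1.33, limma adjusted p = 0.000473), a 2.16-fold rise.

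The Lss promoter is shown beside that of Msmo1, the enzyme with the largest difference without placebo replicate 3, to set the arrangement of their CCAAT boxes against that of Hmgcs1. By the probe sets used, Msmo1 (1.31) was only just ahead of Fdft1 (1.29), whose other probe set gave 1.36. The Lss and Msmo1 stretches are the 250 bases before the RefSeq start on GRCm38.p6, 5′ to 3′ on the gene's strand, with CCAAT boxes (either strand) in capitals. Lss lies on the plus strand at chr10:76531355-76531604 and Msmo1 on the minus strand at chr8:64733579-64733828.
Lss: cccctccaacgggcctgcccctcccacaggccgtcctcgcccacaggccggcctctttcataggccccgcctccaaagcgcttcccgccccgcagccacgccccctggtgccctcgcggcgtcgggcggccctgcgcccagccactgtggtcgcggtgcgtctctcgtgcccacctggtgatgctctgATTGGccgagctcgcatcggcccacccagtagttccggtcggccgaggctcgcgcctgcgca
Msmo1: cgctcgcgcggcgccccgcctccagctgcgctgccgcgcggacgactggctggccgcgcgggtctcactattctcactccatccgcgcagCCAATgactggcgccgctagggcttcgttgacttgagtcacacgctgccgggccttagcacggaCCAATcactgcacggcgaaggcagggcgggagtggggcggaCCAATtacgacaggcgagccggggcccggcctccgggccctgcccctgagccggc

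The Lss stretch held 1 CCAAT box, 62 bases upstream, and the Msmo1 stretch held 3, at 55, 96 and 160 bases. Neither held TCACNCCAC. Upstream sequence was found for 22 of the 28 measured genes, and 20 of these (90.9%) held a CCAAT box in it, against 38.8% of the 15613 measured genes with such a sequence. The element TCACNCCAC was in 1 of the 22 (1.2% of genes), the E-box CACGTG in 6 (8.11% of genes) and the palindromic oestrogen response element, GGTCA and TGACC with 3 bases between them, in 0 (0.032% of genes). Both strands were searched, for genes with several starts a match before any of them counted, and 0 matches of different motifs overlapped. A match is only a run of letters, and the lack of one says nothing about binding elsewhere.

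From lanosterol to cholesterol all 8 genes were measured, and 7 rose without placebo replicate 3, with a median of 0.64 log2 over the 8. Msmo1, the sterol methyl oxidase that begins removal of the methyl groups at the sterol ring, measured 8.84, 8.93 and 9.12 in the E2 tumours, against 7.72, 7.60 and 9.57 in the placebo tumours. Placebo replicate 3 held the highest value of all, 1.91 log2 units above the mean of the other placebo tumours, the widest such gap among the 28 genes. Msmo1 differed by 0.67 on 6 arrays (SE 0.53, limma adjusted p = 0.558) and by 1.31 without placebo replicate 3 (SE 0.11, limma adjusted p = 0.000489), a 2.47-fold rise.

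Cyp51, lanosterol demethylase, measured 6.72, 6.88 and 6.91 in the E2 tumours, against 5.81, 6.01 and 7.02 in the placebo tumours. Tm7sf2, a sterol reductase that acts next, measured 6.28, 6.28 and 6.33 with E2 and 5.26, 5.46 and 6.67 with placebo. For both genes the E2 tumours were narrowly spaced, between placebo replicate 3 above and the other placebo tumours below. Cyp51 rose by 0.93 and Tm7sf2 by 0.94 on the log2 scale without placebo replicate 3. Sc5d, the sterol desaturase, rose by 0.68, Nsdhl, a dehydrogenase that works with Msmo1, by 0.60, and Ebp, the sterol isomerase, by 0.47. On 6 arrays Cyp51 and Tm7sf2 differed by 0.56 and 0.50, Sc5d by 0.27, Nsdhl by 0.42 and Ebp by 0.22. For these 5 genes the adjusted p on 6 arrays lay between 0.363 and 0.728 in limma.

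Hsd17b7 and Dhcr7 followed another order of tumours. Hsd17b7, a reductase of the same demethylation complex that also converts estrone to estradiol, measured 7.82, 7.70 and 7.88 in the E2 tumours, against 7.42, 7.29 and 7.33 in the placebo tumours. Here placebo replicate 3 lay between the other placebo tumours, and the difference was 0.45 both on 6 arrays (limma adjusted p = 0.0798) and without that array (limma adjusted p = 0.0275). Dhcr7 encodes the reductase that yields cholesterol in the last step. It measured 7.13, 7.22 and 7.33 in the E2 tumours and 7.08, 6.84 and 6.57 in the placebo tumours, with placebo replicate 3 the lowest. The groups were apart, but the difference without placebo replicate 3 was 0.27 log2 and did not pass (95% confidence interval 0.0066 to 0.53, limma adjusted p = 0.189).

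In its enzyme levels placebo replicate 3 lay nearer to the E2 tumours than to the other placebo tumours. It was above both other placebo tumours in 15 of the 18 enzymes (38.1% of all genes), with Ggps1, Hsd17b7 and Dhcr7 as the exceptions. It was above all 3 E2 tumours in Hmgcs1, Cyp51, Tm7sf2, Msmo1, Ebp and Sc5d, within the E2 range in 6 and below it in Fdps, Ggps1, Fdft1, Lss, Hsd17b7 and Dhcr7. Over all genes it was above all E2 tumours in 36.8% and below all of them in 40.8%, so these 6 and 6 of 18 are near the background. The mean log2 level of the 18 enzymes was 7.24, 7.25 and 7.34 in the E2 tumours, 6.62 and 6.50 in placebo replicates 1 and 2, and 7.24 in placebo replicate 3. The enterocyte markers were high in the same array, and their part in these values was not tested.

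**Figure D2:**
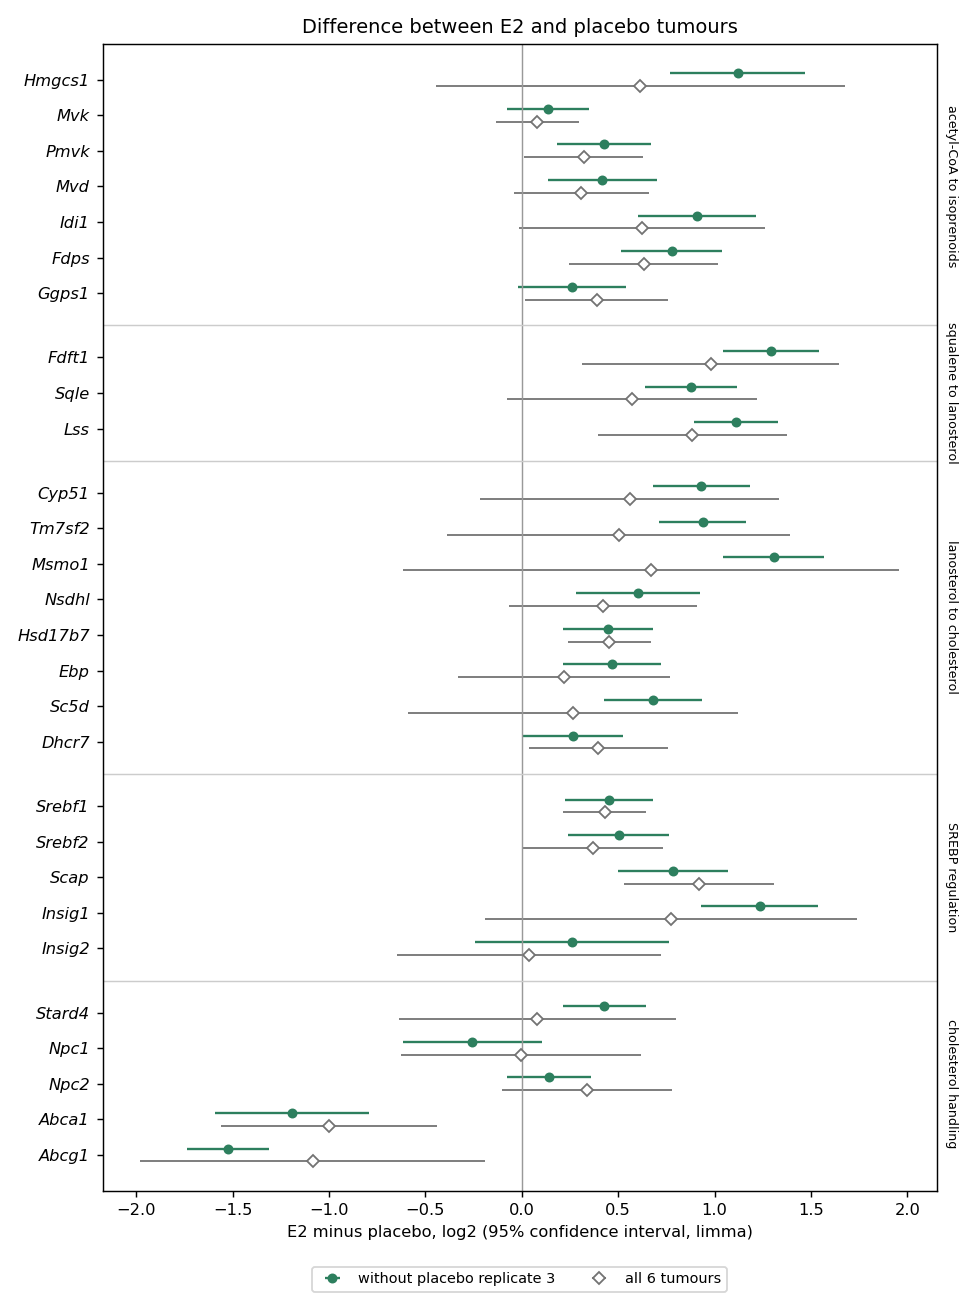
E2 minus placebo difference (log2, horizontal axis) with its 95% confidence interval from limma for each of the 28 genes, without placebo replicate 3 (filled circles) and on all 6 tumours (open diamonds). Intervals are narrower without placebo replicate 3 in 26 of the 28 genes, for example 0.89 to 1.33 for Lss, and wider in Hsd17b7 and Srebf1, and Abca1 and Abcg1 lie left of 0 in both settings.

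Of the 5 regulators, all but Insig2 rose without placebo replicate 3. Scap, the sterol-sensing escort of SREBPs, measured 8.09, 7.83 and 8.19 in the E2 tumours, against 7.30, 7.20 and 6.84 in the placebo tumours. The groups were well apart and, unlike most enzymes, placebo replicate 3 was the lowest tumour. Scap had the smallest adjusted p of the 28 genes on 6 arrays, at 0.92 log2 (SE 0.16, limma adjusted p = 0.0600), and rose by 0.78 without placebo replicate 3 (limma adjusted p = 0.00644).

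Srebf1 encodes the SREBP best known for fatty acid synthesis and Srebf2 the one best known for cholesterol synthesis. Srebf1 measured 7.28, 7.11 and 7.20 in the E2 tumours, against 6.81, 6.69 and 6.81 in the placebo tumours. The 3 placebo tumours were close together in Srebf1, placebo replicate 3 included, and the difference was 0.43 on 6 arrays (limma adjusted p = 0.0869) and 0.45 without it (limma adjusted p = 0.0243). Srebf2 measured 7.71, 7.69 and 7.97 with E2 and 7.29, 7.28 and 7.69 with placebo. It rose by 0.50 without placebo replicate 3, which lay level with the lowest E2 tumours. On 6 arrays Srebf2 differed by 0.37 (limma adjusted p = 0.302). RNA levels of these genes do not show how much SREBP was cut and active.

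Insig1 and Insig2 encode the proteins that retain SCAP, and Insig1 is itself an SREBP target. Insig1 measured 8.43, 8.33 and 8.72 in the E2 tumours, against 7.18, 7.34 and 8.65 in the placebo tumours. It was low in placebo replicates 1 and 2 and in the E2 range in placebo replicate 3. Insig1 rose by 1.23 without that array (2.35-fold, limma adjusted p = 0.00123) and differed by 0.77 on 6 arrays (limma adjusted p = 0.393). Insig2 measured 7.05, 7.41 and 7.39 in the E2 tumours and 6.65, 7.40 and 7.69 in the placebo tumours. The groups overlapped, and the difference without placebo replicate 3 was 0.26 log2 with an interval of -0.24 to 0.76.

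Without placebo replicate 3, the genes that move cholesterol divided into carriers with smaller differences and exporters that fell. Stard4, a soluble sterol carrier and SREBP target, measured 7.23, 7.30 and 7.36 in the E2 tumours, against 6.90, 6.83 and 7.92 in the placebo tumours. It rose by 0.43 without placebo replicate 3 and differed by 0.079 with it. Npc1 and Npc2 pass cholesterol out of lysosomes together. Without placebo replicate 3 Npc1 differed by -0.26 (interval -0.62 to 0.10) and Npc2 by 0.14 (interval -0.078 to 0.36), and both had their lowest value in placebo replicate 3. On 6 arrays Npc1 differed by -0.0029 and Npc2 by 0.34 (limma adjusted p = 0.996 and 0.411). In Npc2 every E2 tumour lay above every placebo tumour.

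Abca1 loads cholesterol and phospholipid onto apolipoprotein particles. It measured 6.94, 6.52 and 7.15 in the E2 tumours, against 8.04, 8.09 and 7.48 in the placebo tumours. All E2 tumours lay below all placebo tumours, and the difference was -1.0 log2 on 6 arrays (SE 0.23, limma adjusted p = 0.110) and -1.19 without placebo replicate 3 (SE 0.17, limma adjusted p = 0.00442), 2.29-fold lower. Abcg1, which exports cholesterol to high-density lipoprotein, measured 5.67, 5.56 and 5.53 in the E2 tumours, against 7.11, 7.12 and 5.79 in the placebo tumours. Here placebo replicate 3 lay next to the E2 tumours, and Abcg1 differed by -1.09 on 6 arrays (limma adjusted p = 0.228) and fell by 1.52 on the log2 scale without that array (limma adjusted p = 0.000127), 2.88-fold lower and the smallest adjusted p of the 28 genes in that setting.

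The Abca1 promoter is shown as an example without a CCAAT box. Its 250 bases before the RefSeq start (GRCm38.p6, chr4:53159896-53160145, minus strand, 5′ to 3′) held no CCAAT box and no TCACNCCAC on either strand. Nothing is therefore in capitals, and the E-box CACGTG that it held 147 bases upstream is left in lower case.
Abca1: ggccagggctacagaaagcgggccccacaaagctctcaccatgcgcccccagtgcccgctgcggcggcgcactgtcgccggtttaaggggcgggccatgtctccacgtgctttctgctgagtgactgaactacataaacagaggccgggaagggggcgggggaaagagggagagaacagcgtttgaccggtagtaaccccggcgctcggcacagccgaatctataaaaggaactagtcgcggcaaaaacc

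Beside Scap, which rose without placebo replicate 3, Abca1 was the only one of the 22 genes with upstream sequence that lacked a CCAAT box there. Genes outside synthesis such as Insig2 and Npc2 held one, and Abcg1 had no upstream sequence to search.

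Enzymes and exporters were also set against each other within each tumour, as a description. The mean log2 level of the 18 enzymes minus that of Abca1 and Abcg1 was 0.94, 1.21 and 1.00 in the E2 tumours, -0.96 and -1.10 in placebo replicates 1 and 2, and 0.60 in placebo replicate 3. The value and its sign have no meaning as a ratio of RNAs, and only its shift between tumours can be read. Placebo replicate 3 lay nearer to the E2 tumours than to the other placebo tumours.

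Both exporters are also abundant in macrophages, whose markers moved with them. Without placebo replicate 3, 13 of the 15 macrophage markers fell (5.21% of all genes) and 0 rose, with a median of -1.23 log2. On 6 arrays 2 fell, Ctss and Ptprc (0.326% of all genes). The mean level of the macrophage list was 6.76, 6.41 and 6.83 in the E2 tumours, 7.88 and 7.83 in placebo replicates 1 and 2, and 6.80 in placebo replicate 3, and 0 of the markers lay below the lower quartile on any array. The part of macrophage content in the fall of Abca1 and Abcg1 was not tested.

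**Figure D3:**
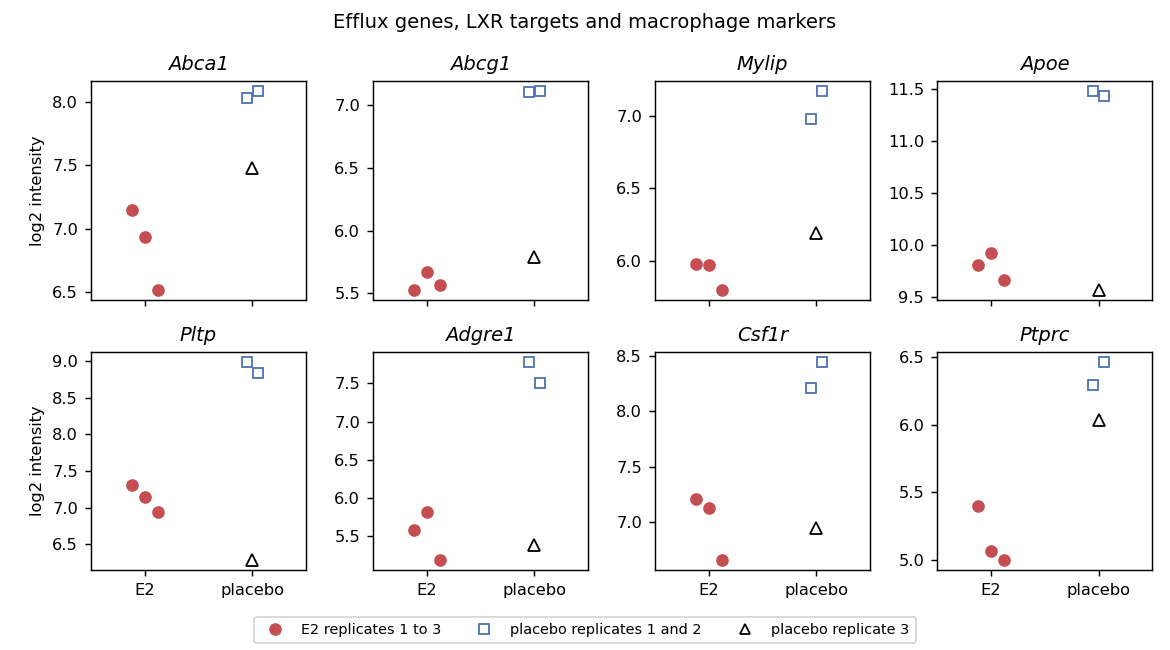
Log2 intensity (vertical axis, a separate scale per panel) of the exporters Abca1 and Abcg1, of Mylip, Apoe and Pltp, and of the macrophage markers Adgre1, Csf1r and Ptprc, in the E2 tumours (circles, left) and the placebo tumours (right; squares are replicates 1 and 2, the triangle is replicate 3). Every E2 tumour lies below placebo replicates 1 and 2 in all 8 genes, and placebo replicate 3 lies below the E2 tumours in Apoe and Pltp and among them in Adgre1 and Csf1r.

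Other LXR and efflux genes did not move as 1 block. Of 13 measured genes in that list, 3 fell and 2 rose without placebo replicate 3 (5.21% and 6.4% of all genes). On 6 arrays 0 passed, and 3 had an unadjusted limma p under 0.05 (10.4% of all genes higher, 6.16% lower). The median was -0.28 log2 without placebo replicate 3 and -0.55 with it. Abcg5 and Abcg8 of this list measured 8.11 and 7.83 in placebo replicate 3, against 4.10 to 4.61 on the other arrays. They differed by -1.50 and -1.13 on 6 arrays. Without placebo replicate 3 they differed by -0.32 and 0.037, and neither passed. Without placebo replicate 3 Mylip, an LXR target that marks lipoprotein receptors for degradation, fell by 1.16 on the log2 scale. Apoe, an apolipoprotein that accepts cholesterol, fell by 1.66, and Pltp, a phospholipid transfer protein, by 1.78. On 6 arrays Mylip, Apoe and Pltp differed by -0.86, -1.03 and -0.90 and did not pass. Placebo replicate 3 lay below every E2 tumour in Apoe and Pltp. Lpcat3, a phospholipid-remodelling enzyme and LXR target, rose by 0.58, and with placebo replicate 3, its highest tumour, it differed by -0.22. Cyp7b1, which hydroxylates oxysterols, measured 6.55, 7.27 and 6.90 in the E2 tumours and 5.14, 5.18 and 5.92 in the placebo tumours, a rise of 1.75 without placebo replicate 3 (1.49 and limma adjusted p = 0.0708 on 6 arrays). Nr1h3, the LXR alpha gene, differed by -0.32 (limma adjusted p = 0.0706) and Cyp27a1, another oxysterol enzyme, by -0.34 (limma adjusted p = 0.104) in that setting.

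Of 18 fatty acid synthesis genes that SREBPs drive, 2 rose on 6 arrays and 9 rose without placebo replicate 3. Over all genes these shares were 1.06% and 6.4%. There were 0 falls in either setting, and the medians were 0.53 and 0.50 log2. Me1, malic enzyme, which supplies NADPH, measured 9.16, 9.29 and 9.36 in the E2 tumours, against 7.13, 7.48 and 6.86 in the placebo tumours. Acly, ATP citrate lyase, which makes cytosolic acetyl-CoA for both lipid pathways, measured 8.39, 8.35 and 8.38 with E2 and 7.58, 7.52 and 7.43 with placebo. Both sets of tumours were far apart, with placebo replicate 3 the lowest, and on 6 arrays Me1 rose by 2.11 (limma adjusted p = 0.00705) and Acly by 0.86 (limma adjusted p = 0.0100). Without any one E2 array, placebo replicate 3 kept, 0 of the 76 measured genes in the neighbouring lists rose.

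Elovl5, a fatty acid elongase, was 1.08 log2 units higher on 6 arrays (limma adjusted p = 0.0564) and rose by 0.89 without placebo replicate 3. Scd2, a desaturase, was 0.77 higher (limma adjusted p = 0.0755) and rose by 0.91. The other genes that rose without placebo replicate 3 were Elovl6, Fads1, Gpam, Slc25a1 and Aacs, by 0.47 to 1.16 log2. With placebo replicate 3 included Slc25a1, the mitochondrial citrate carrier, differed by -0.011. Fasn, fatty acid synthase, differed by 0.44 without placebo replicate 3 and did not pass (limma adjusted p = 0.10).

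Lipoprotein uptake and intracellular transport held 21 measured genes. Of these, 1 rose on 6 arrays and 6 rose without placebo replicate 3 (1.06% and 6.4% of all genes), with 0 falls. Vldlr, a lipoprotein receptor, measured 7.56, 7.61 and 7.84 in the E2 tumours, against 5.62, 6.53 and 6.24 in the placebo tumours. The groups were well apart, and Vldlr rose by 1.54 on 6 arrays (limma adjusted p = 0.0483). Gramd1b, which ferries cholesterol from the plasma membrane to the endoplasmic reticulum, rose by 1.48 without placebo replicate 3, Scarb1, the receptor that takes up cholesterol from high-density lipoprotein, by 0.71, and Vapa, a tether between membranes, by 0.58. Nceh1, a cholesterol ester hydrolase, and Tmem97, a sterol-related membrane protein, rose by 0.43 and 0.76. On 6 arrays Gramd1b, Scarb1, Vapa, Nceh1 and Tmem97 differed by 1.20, 1.14, 0.51, 0.67 and 0.54. None of them passed there (limma adjusted p from 0.0745 to 0.366).

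**Figure D4:**
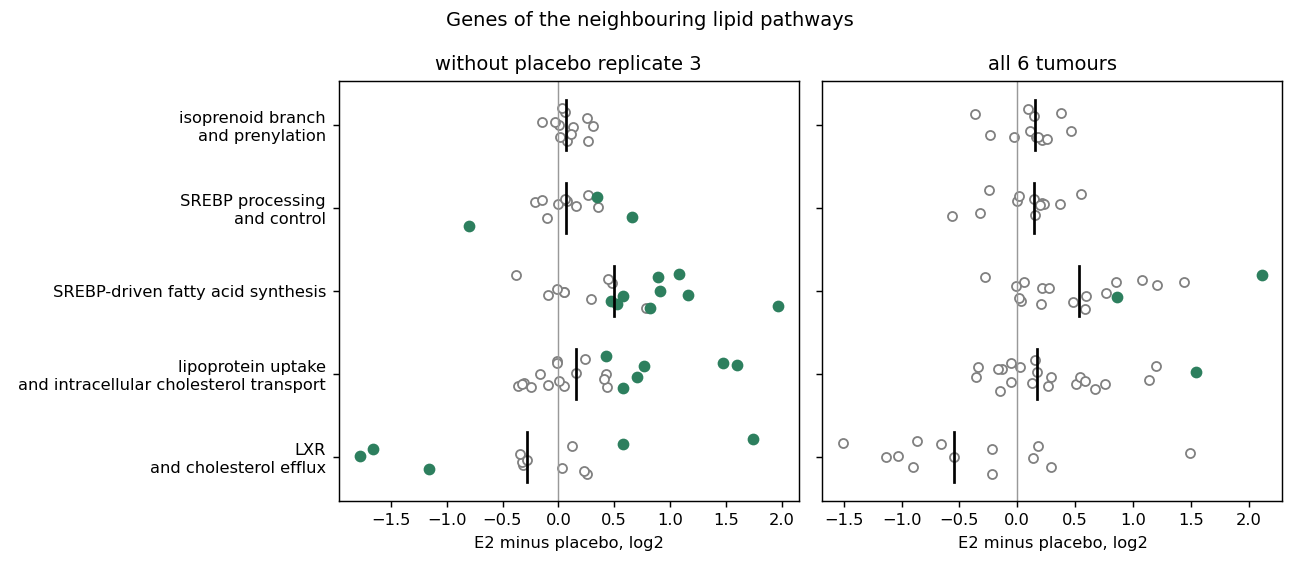
E2 minus placebo difference (log2, horizontal axis) of each measured gene in 5 neighbouring lists, without placebo replicate 3 (left) and on all 6 tumours (right). Filled points passed limma at an adjusted p under 0.05 over all genes and black bars are list medians, and the fatty acid list has the highest median in both panels, 0.50 and 0.53.

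The remaining lists showed little. Of 12 measured genes of the isoprenoid branch and protein prenylation, 0 passed limma in either setting, with medians of 0.15 log2 on 6 arrays and 0.066 without placebo replicate 3. Its 4 smallest p-values on 6 arrays belonged to Zmpste24, a protease that trims prenylated proteins, at 0.38, Rabggta and Rabggtb, the subunits of the Rab prenylating enzyme, at 0.25 and 0.47, and Pdss2, an enzyme of coenzyme Q synthesis, at -0.36. At an unadjusted limma p under 0.05, 2 of the 12 passed on 6 arrays, against 10.4% of all genes higher and 6.16% lower.

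Of 12 measured genes of SREBP processing and control, 0 passed on 6 arrays. On 6 arrays 3 had an unadjusted limma p under 0.05, against 10.4% of all genes higher and 6.16% lower. Without placebo replicate 3, 2 rose and 1 fell (6.4% and 5.21% of all genes). Prkaa1, a catalytic subunit of the energy sensor AMPK, which restrains lipid synthesis, rose by 0.66. Tmed10, a carrier of the secretory pathway, rose by 0.34, and Mid1ip1, which promotes fatty acid synthesis, fell by 0.80. Fbxw7, which marks active SREBPs for degradation, differed by 0.36 and Spring1, a cofactor of SREBP cleavage, by 0.061, and neither passed (limma adjusted p = 0.149 and 0.772).

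Steroid-making genes use the same cholesterol and were higher with E2. Of 7 measured steroidogenic markers, 5 rose on 6 arrays and 7 without placebo replicate 3 (1.06% and 6.4% of all genes). Their mean level was 6.51, 6.15 and 6.36 in the E2 tumours and 4.51, 4.54 and 4.60 in the placebo tumours, and 2 to 4 of the 7 lay below the lower quartile on each placebo array and 0 on each E2 array. Cyp11a1, which cuts the cholesterol side chain, differed by 4.26 and Fdx1, its electron donor, by 1.22 on 6 arrays. Placebo replicate 3 was at the placebo level in this list and at the E2 level in the cholesterol enzymes, and the part of steroid-making cells in the enzymes' differences was not tested. Among the other marker lists, 6 of 7 adipocyte and 4 of 10 endothelial markers fell and 1 endothelial marker rose without placebo replicate 3. Over all genes 5.21% fell and 6.4% rose in that setting. There 0 of 11 liver, 0 of 6 goblet cell and 1 of 6 Paneth cell markers passed, the last a fall. Placebo replicate 3 itself had high goblet and Paneth cell markers, with list means of 9.59 and 10.61. On the other arrays these means were 4.45 to 4.64 and 4.09 to 5.01.

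Markers of ovarian surface epithelium and mesothelium, the tissue in which the model's T antigens are switched on, moved as well. Of 13, 8 fell and 1 (Gata4) rose without placebo replicate 3 (5.21% and 6.4% of all genes). On 6 arrays 1 fell (Krt7) and 1 rose (Gata4), against 0.326% and 1.06% of all genes. Gpm6a, Lrrn4 and Upk3b differed by -4.32, -3.92 and -3.75 log2 without placebo replicate 3. The list mean was 6.47, 6.35 and 6.62 in the E2 tumours, 8.09 and 7.99 in placebo replicates 1 and 2, and 7.38 in placebo replicate 3. The part of these cells in the differences of the cholesterol genes was not tested.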

How the data were processed

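Expression was measured on 6 Affymetrix whole-transcript arrays, 1 per tumour. The authors deposited log2 values normalised with RMA, per the submitters' processing notes, and RMA's software and the scanner files were not used here. RMA corrects background, quantile-normalises and summarises probes, so levels are relative and low values are compressed. Of 34760 probe sets, 21640 named 1 gene in the platform annotation, 1321 several and 11799 were not listed there. The brightest probe set stood for each of 19937 genes. The E2 minus placebo difference was tested with limma 3.58.1 in R 4.3.3 (lmFit, eBayes), with Benjamini-Hochberg adjusted p under 0.05 over all genes, on 6 arrays and without placebo replicate 3. An exact permutation test of 3 against 3 cannot go below p = 0.1. On simulated data for the 6 arrays, 200 of 19937 genes were changed. The fit recovered 65% of changes of 1 log2 unit and 87% of changes of 2 units, with 8 false calls. These shares cannot be carried over to the cholesterol genes, which varied more among the placebo tumours than most genes. Their median SD there was 0.42 log2, against 0.18 over all genes, with placebo replicate 3 included. The recovery therefore does not show how many changes in the cholesterol genes the fit could miss. The number of arrays limits the precision, and nothing given shows whether tumours of a group shared a host.

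The genes and lists were chosen with earlier results of these data known. All measured genes of the set were named, with the 4 of smallest p on 6 arrays from each neighbouring list, and Greb1 and Pgr. Ctss, Ptprc, Adgre1, Csf1r, Apoe, Pltp, Lpcat3, Tmed10, Fasn, Elovl6, Fads1, Gpam, Slc25a1, Aacs, Scarb1, Tmem97, Cyp11a1, Fdx1, Gpm6a, Lrrn4, Upk3b, Krt7 and Gata4 were named after their values were seen. Abcg5 and Abcg8 were also named in that way. Promoters are from RefSeq (GRCm38.p6), matched by symbol.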

Additional observations from a re-analysis of the deposited data

How the results depend on the processing

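On 6 arrays 211 genes were higher and 65 lower with E2, of the 28 cholesterol genes 0 and 0, and of the 76 genes in the neighbouring lists 3 and 0. Leaving out 1 array gave 31 to 1276 genes higher and 0 to 1039 lower, 0 to 19 cholesterol genes higher and 0 to 2 lower, and 0 to 19 list genes higher and 0 to 4 lower. All the upper ends came from leaving out placebo replicate 3. Leaving out that array and 1 other gave 688 to 1143 genes higher and 530 to 1037 lower, 12 to 16 cholesterol genes higher and 2 lower, and 11 to 19 list genes higher and 4 to 5 lower. A group left with 1 array was assumed to vary like the other group. Without placebo replicate 3, repeating quantile normalisation gave 1182 genes higher and 1195 lower, 15 and 2 cholesterol genes, and 17 and 5 list genes. Median centring there gave 1840 and 938 genes, 20 and 2, and 24 and 4, and a trended, robust variance gave 1233 and 1118, 19 and 2, and 18 and 4. Array weights on 6 arrays gave 1026 and 760 genes, 14 and 2 cholesterol genes, and 11 and 4 list genes. Median centring on 6 arrays gave 342 genes higher and 1 cholesterol gene, Scap. The replicate number as a block gave 10 genes higher and 0 lower, and 0 list genes higher. Correlations of deviations between arrays with the same number were -0.029, -0.18 and -0.13. Placebo replicate 3 weighs heavily in the placebo deviations, so these values cannot settle whether the numbers pair the samples. Settings that combine placebo replicate 3 with another choice, and median centring, were added after seeing the data. Among single genes, 3 with differences near 0 changed sign. Without 1 array, or without placebo replicate 3 and 1 other, Npc1 ranged over -0.40 to 0.18, Insig2 over -0.26 to 0.64 and Stard4 over -0.11 to 0.46. Npc1 was 0.043 after median centring, and repeated quantile normalisation gave -0.097 for Insig2 and -0.028 for Stard4. Beyond what leaving out arrays shows, the cause was not tested. The median of all genes stayed within 0.06 log2 of 0 in every setting.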

Other observations

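The E2 tumours varied less among themselves than the placebo tumours in 26 of the 28 cholesterol genes (71.9% of all genes), placebo replicate 3 included, with a median SD of 0.12 log2 in the E2 tumours and 0.42 in the placebo tumours (n = 3 each). Over all genes the median SD was 0.10 in the E2 tumours and 0.18 in the placebo tumours. Placebo replicate 3 lay a median of 0.71 log2 units above the mean of the other placebo tumours over the 18 enzymes, against -0.024 over all genes.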
